A study of Mus musculus with 4 samples.

Results

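The subject is a set of 10 cytokine receptor chains in mouse thymocytes: Il7r, Il2rg, Il4ra, Il27ra, Il6ra, Il6st, Il21r, Ifngr1, Ifngr2 and Ifnar1. They were chosen by name, as the rows of the deposited expression table whose symbol is one of these, and all 10 were found among the 53715 genes in that table. RNA was sequenced from sorted CD4+CD8+ double-positive thymocytes of C57BL/6 mice aged between 6 and 8 weeks. The control group, called wild type in the labels (WT, 2 libraries) has no further genotype detail in the labels, so whether these mice carried floxed alleles or Cre is not stated. The knockout group (KO, 2 libraries) carried LCKCre/+ and Srsf1fl/fl, that is, a Cre recombinase under the Lck promoter, which is active from early thymocytes on, and floxed alleles of Srsf1, which encodes an RNA-binding splicing factor. The labels do not state whether the libraries of a group stem from different animals, and p-values below therefore describe only how far these libraries lie apart, which may be technical.

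Cytokine receptors of this kind are built from 2 or more chains, each with an extracellular part that binds the cytokine or its partner chain and a cytoplasmic part that holds a JAK kinase. Binding brings the kinases together, and they phosphorylate STAT transcription factors. Chains are shared: Il2rg, the common gamma chain, serves the receptors for interleukin-2, interleukin-4, interleukin-7, interleukin-9, interleukin-15 and interleukin-21, and Il6st (gp130) serves those for interleukin-6 and interleukin-27. Double-positive thymocytes are known for low Il7r, which is present before and after this stage and carries survival signals there.

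Of the 10 chains, 2 were lower in KO and 0 were higher, and the other 8 did not pass the test. Ifngr2, the signalling chain of the interferon gamma receptor, fell to 46.3% of its WT level, and Il4ra, the ligand-binding chain of the interleukin-4 receptor, fell to 64.6%. A gene was called when its adjusted p from the edgeR quasi-likelihood test was under 0.05. Over all 16588 genes tested, 7.89% were called lower, 6.63% higher and 14.5% either way, and the counts of 2 and 0 among 10 chains are given beside these shares with no test of the list. At an unadjusted edgeR p under 0.05, 2 chains were higher (Il7r and Il2rg) and 3 lower. At that threshold, 2206 of all 16588 genes tested were higher and 2336 lower. DESeq2 and limma-voom also called 0 chains higher and 2 lower at an adjusted p under 0.05. The median log2 fold change of the 10 chains was -0.12, beside 0.00 over all genes tested.

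Libraries held 35862730 to 37033180 counts, so 1 count was worth 0.027 to 0.0279 CPM, the count scaled to the library total. Srsf1, the targeted gene, stood at 4821 and 4485 counts in WT against 1839 and 1772 in KO (38.3% of WT, adjusted p = 2.91e-06). Which exons are deleted is not stated in the labels. Double-positive markers were abundant in all 4 libraries, with Cd4 between 1209.9 and 1388 CPM and Cd8a between 1806 and 2122 CPM. In KO, 6 of the 11 markers in that list rose (Rag1, Rag2, Dntt, Cd8b1, Cd8a and Ptcra). Of these, Cd8a and Ptcra were near the threshold (adjusted p from edgeR = 0.0339 and 0.0479). Ptcra was not called with library size only (0.0501), and neither call held with each library left out in turn. Of 9 markers of mature single-positive cells, 4 fell (Ccr7, S1pr1, Klf2 and Runx3). Of 8 tested markers of double-negative cells, Notch3 rose and Hes1 fell, with Hes1 not called on leaving out WT replicate 2 (adjusted p = 0.0617). Of 5 tested B cell markers, Ighm and Cd79b rose and 3 were not called, with log2 fold changes from -1.73 to 1.02 over the 5. All 6 in that list summed to 238 and 231 CPM in WT and 363 and 357 CPM in KO. Only 3 of them reached a mean of 1 CPM, so few genes carried these sums. Cd79b was not called on leaving out WT replicate 2 (adjusted p = 0.0976) or KO replicate 2 (0.0744). None of the tested myeloid, dendritic, epithelial, erythroid, natural killer or stromal markers was called in the main fit. Clec9a, Krt5, Krt14 and Foxn1 had 0 counts in every library. With upper-quartile factors, no filter, a mean of at least 1 CPM, limma-voom or the replicate block, 1 natural killer marker was called higher. With DESeq2 or library size only, 0 were. In fits that left 1 library in a group, calls among the markers of these cell types went in both directions. The part of such cells in the values of the chains was not tested. In bulk RNA of this kind, fewer cells of a type and less RNA per cell cannot be told apart.

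To compare chains with each other, levels were read as RPKM, which divides by gene length and by library total. In WT, Ifngr1 stood highest at 112 ± 5.23 RPKM (SD, n = 2), then Il4ra at 83.1 ± 2.43, Ifngr2 at 44.9 ± 6.28, Il2rg at 44.9 ± 0.271 and Il21r at 41.3 ± 0.0445 RPKM. Ifnar1 at 27.6 ± 1.67, Il6st at 25.3 ± 1.06 and Il27ra at 10.6 ± 0.884 RPKM came next. Il7r and Il6ra stood far below, at 0.873 ± 0.237 and 0.433 ± 0.352 RPKM. Between neighbours in this order, only the libraries of Ifngr2 and Il2rg overlapped in WT. In KO, Ifngr2 moved from rank 3 to rank 7 with 20.7 ± 1.16 RPKM, where its libraries overlapped those of Il6st, and the libraries of Il4ra and Il2rg overlapped too. The others kept their order.

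**Figure D1:**
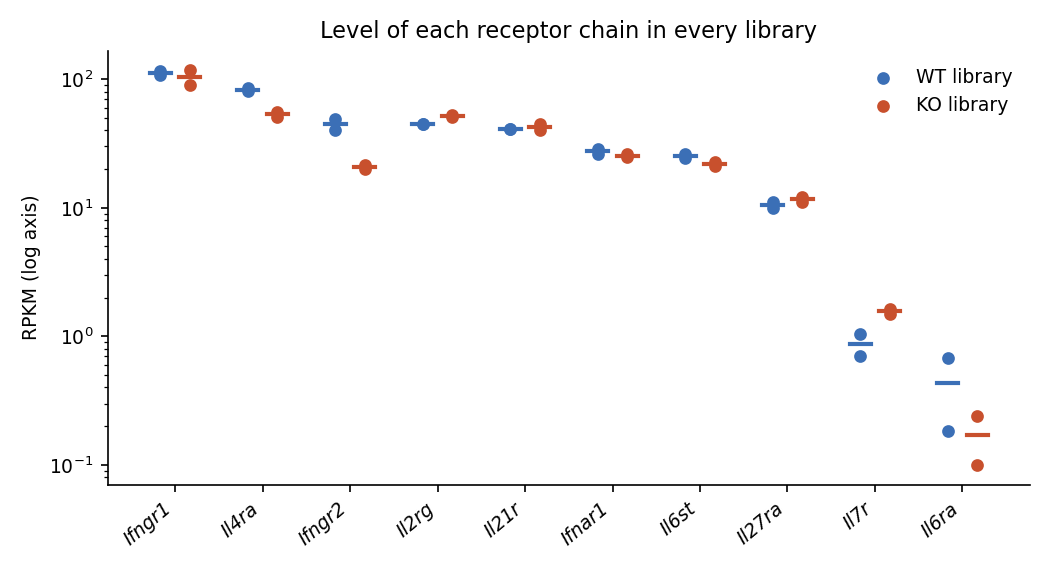
RPKM (log axis) of each receptor chain in the 2 WT and 2 KO libraries, with points for libraries and bars for group means. Ifngr2 and Il4ra are lower in both KO libraries, while Il7r and Il6ra lie near or under 1 RPKM in every WT library.

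The interferon receptors held the largest called change. Interferon gamma binds 2 chains: Ifngr1, which binds the cytokine and carries JAK1, and Ifngr2, which carries JAK2 and is needed for the signal. Ifngr2 (ENSMUSG00000022965.7, chromosome 16, 91547072 to 91565623, plus strand, GRCm38) was counted 4809 and 5971 times in WT, and 2646 and 2403 times in KO, or 134 and 164 against 71.4 and 66.0 CPM. Both KO libraries lay below both WT libraries, although the WT libraries differed between themselves more than the KO libraries did. The log2 fold change was -1.11 (SE 0.10, 95% interval -1.33 to -0.89, adjusted p = 2.76e-05). With each library left out in turn it lay between -1.24 and -0.96, and the call held each time. It was lost in limma on log2 RPKM over all genes with a count, a test that called 0 genes of any kind (adjusted p = 0.0879).

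The promoter of Ifngr2 is shown because this gene had the largest called change, beside that of its partner Ifngr1. Sequences are from RefSeq, build GRCm38.p6, and cover the 250 bases before the annotated start, 5′ to 3′ on the gene's own strand. Both lie on the plus strand, at chr16:91546809-91547058 and chr10:19591699-19591948. Capitals mark matches to the GC box GGGCGG on either strand and, where present, to the EGR motif GCGNGGGCG, which overlaps the GC box.
Ifngr2: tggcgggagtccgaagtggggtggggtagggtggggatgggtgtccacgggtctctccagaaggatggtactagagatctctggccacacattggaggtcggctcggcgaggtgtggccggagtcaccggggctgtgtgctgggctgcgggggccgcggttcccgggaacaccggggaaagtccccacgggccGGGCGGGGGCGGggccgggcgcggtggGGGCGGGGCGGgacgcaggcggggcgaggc
Ifngr1: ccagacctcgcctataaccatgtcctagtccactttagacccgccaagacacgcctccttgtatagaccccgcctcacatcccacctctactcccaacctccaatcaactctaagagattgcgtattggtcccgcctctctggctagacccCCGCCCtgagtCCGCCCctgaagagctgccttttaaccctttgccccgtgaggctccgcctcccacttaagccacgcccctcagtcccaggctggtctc

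The Ifngr2 window held 4 GC boxes in 2 runs and 1 EGR match, and the Ifngr1 window held 2 GC boxes. Of 32851 RefSeq promoter windows of this length, 32.7% held a GC box and 4.70% the EGR motif. The Ifngr2 window was 74.0% G or C with 25 CpG pairs, against 59.2% and 11 in Ifngr1 and medians of 52.4% and 6 over all windows. Such traits were not particular to Ifngr2 among the chains. The window of Ifnar1, not called, was 65.6% G or C with 19 CpG pairs, 2 GC boxes and 1 EGR match. That of Il6st, also not called, was 66.0% with 26 CpG pairs and 1 GC box. Il7r (44.0% and 1 CpG pair) and Il2rg (49.2% and 3) lay under the medians. A match describes letters only, and no factor binding was measured here.

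Ifngr1 (ENSMUSG00000020009.12, chromosome 10, 19591949 to 19610229, plus strand) did not pass the test. It had 330 and 309 CPM in WT and 333 and 257 CPM in KO. The groups overlapped, since KO replicate 1 was the highest of all libraries and KO replicate 2 the lowest. Its log2 fold change was -0.11 (SE 0.10, 95% interval -0.34 to 0.11, adjusted p = 0.553). It was called lower without KO replicate 1 (-0.29, adjusted p = 0.019) and turned positive without KO replicate 2 (0.06).

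Ifnar1 (ENSMUSG00000022967.12, chromosome 16, 91485238 to 91507441, plus strand) encodes the TYK2-binding chain of the type I interferon receptor. It had 155 and 169 CPM in WT and 153 and 145 CPM in KO. The KO libraries lay just under the WT libraries without overlap, a pattern shared by 55.9% of all genes tested in one direction or the other. Between groups the log2 fold change was -0.12 (SE 0.08, 95% interval -0.30 to 0.06, adjusted p = 0.391). Its partner Ifnar2 had 52.1 and 44.7 CPM in WT and 39.1 and 44.6 CPM in KO (-0.21, SE 0.13, adjusted p = 0.364).

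The genes of Ifnar2, Il10rb, Ifnar1 and Ifngr2, all chains of class II receptors, lie in a row on chromosome 16. Il10rb, which serves the interleukin-10 receptor, had 7.11 and 7.86 CPM in WT and 9.23 and 11.6 CPM in KO (0.48 in log2, SE 0.26, adjusted p = 0.264). Within 200000 bases of Ifngr2, 13 genes were tested besides Ifngr2 and Ifnar1. Of these, 1 was called, Son, an RNA-binding splicing cofactor gene that starts about 100 kb away (-0.35, SE 0.06, adjusted p = 0.0023) and overlaps Donson. The nearest annotated genes were Gm7860 before and Tmem50b after Ifngr2. Gm7860, a processed pseudogene, had 10 to 18 counts in each library. For Tmem50b the log2 value was -0.22 (SE 0.16, adjusted p = 0.422).

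The common gamma chain family held the other called change. Il4ra (ENSMUSG00000030748.9, chromosome 7, 125552120 to 125579474, plus strand) encodes the chain that binds interleukin-4 and also serves interleukin-13. It had 17516 and 18587 counts in WT and 11393 and 12230 in KO, or 488 and 509 against 308 and 336 CPM. The groups were well apart, and each pair of libraries was close. The log2 fold change was -0.63 (SE 0.07, 95% interval -0.79 to -0.47, adjusted p = 0.000188). With each library left out it lay between -0.70 and -0.55, and the call held each time, though not in the same limma test on log2 RPKM (adjusted p = 0.0879). The antisense gene Gm44876 overlaps Il4ra by 1342 bases and had 6 counts in WT replicate 1 and 0 in the other libraries.

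The RefSeq window before the Il4ra start, on the plus strand, held a match to the octamer ATGCAAAT, the site of POU factors, and 2 to the related ATGTAAAT. They are shown since the other windows of the set held neither. Each stretch has 30 bases, and capitals mark the motif. All 3 lie before the RefSeq start but after the GENCODE start of Il4ra, at 125552120, which is further upstream. Their positions in GRCm38.p6 are chr7:125552121-125552150, chr7:125552193-125552222 and chr7:125552226-125552255.
Il4ra octamer: tggggtggggcATGCAAATaagccagcgat
Il4ra octamer-like, first: aggggcggggcATGTAAATgaccgtgcacg
Il4ra octamer-like, second: tggggcgtcgcATGTAAATaagggacacca

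Of all RefSeq windows, 1.60% held ATGCAAAT and 1.22% held ATGTAAAT on either strand. The window also held 1 GC box. A set of 10 motifs was searched in the windows of 9 chains, chosen after the promoter sequences had been seen, and no entry was matched for Il27ra. The ETS motif CCGGAAG (6.91% of windows) was found in Ifnar1 and Il2rg, the FOXO motif GTAAACA (3.17%) in Il21r, and the STAT motif TTCNNNGAA (7.02%) in Il7r. The EGR motif was found in Ifnar1 as well as in Ifngr2. The AP-1 motif TGANTCA, the CRE TGACGTCA and the TATA box TATAAA were in none of the 9 windows.

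Il2rg (ENSMUSG00000031304.18, chromosome X, 101264378 to 101268255, minus strand), the chain that pairs with Il4ra, had 107 and 108 CPM in WT and 125 and 122 CPM in KO. Both KO libraries were above both WT libraries, and the spread within each group was small. Its log2 fold change of 0.21 (SE 0.08, 95% interval 0.03 to 0.38) was not called. The adjusted p from edgeR was 0.114. The intervals given here are not adjusted for the number of genes. An annotated gene that spans Il2rg on the same strand, Gm20489, had 0 counts in every library. How reads in the shared bases were assigned is not known here.

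Il21r (ENSMUSG00000030745.9, chromosome 7, 125603429 to 125633570, plus strand), which binds interleukin-21, is the next annotated gene after Il4ra, 23955 bases on. It had 137 and 137 CPM in WT and 134 and 149.7 CPM in KO. The groups overlapped, and the log2 fold change was 0.05 (SE 0.09, 95% interval -0.13 to 0.24, adjusted p = 0.784), which turned to -0.03 without KO replicate 2. Of 4 genes tested besides Il21r and Il4ra within 200000 bases, 2 were called lower. They were Gtf3c1 (-0.24, adjusted p = 0.0439), whose call was lost without any 1 of the 4 libraries (0.0596 to 0.201), with the replicate block (0.0785) and with upper-quartile factors (0.0561), and AC127333.1 (-0.49, adjusted p = 0.0137), whose call was lost without WT replicate 1 (0.0598). The nearest gene before Il4ra, the processed pseudogene Gm4973, had 10 counts in KO replicate 1 and 0 in the other libraries.

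**Figure D2:**
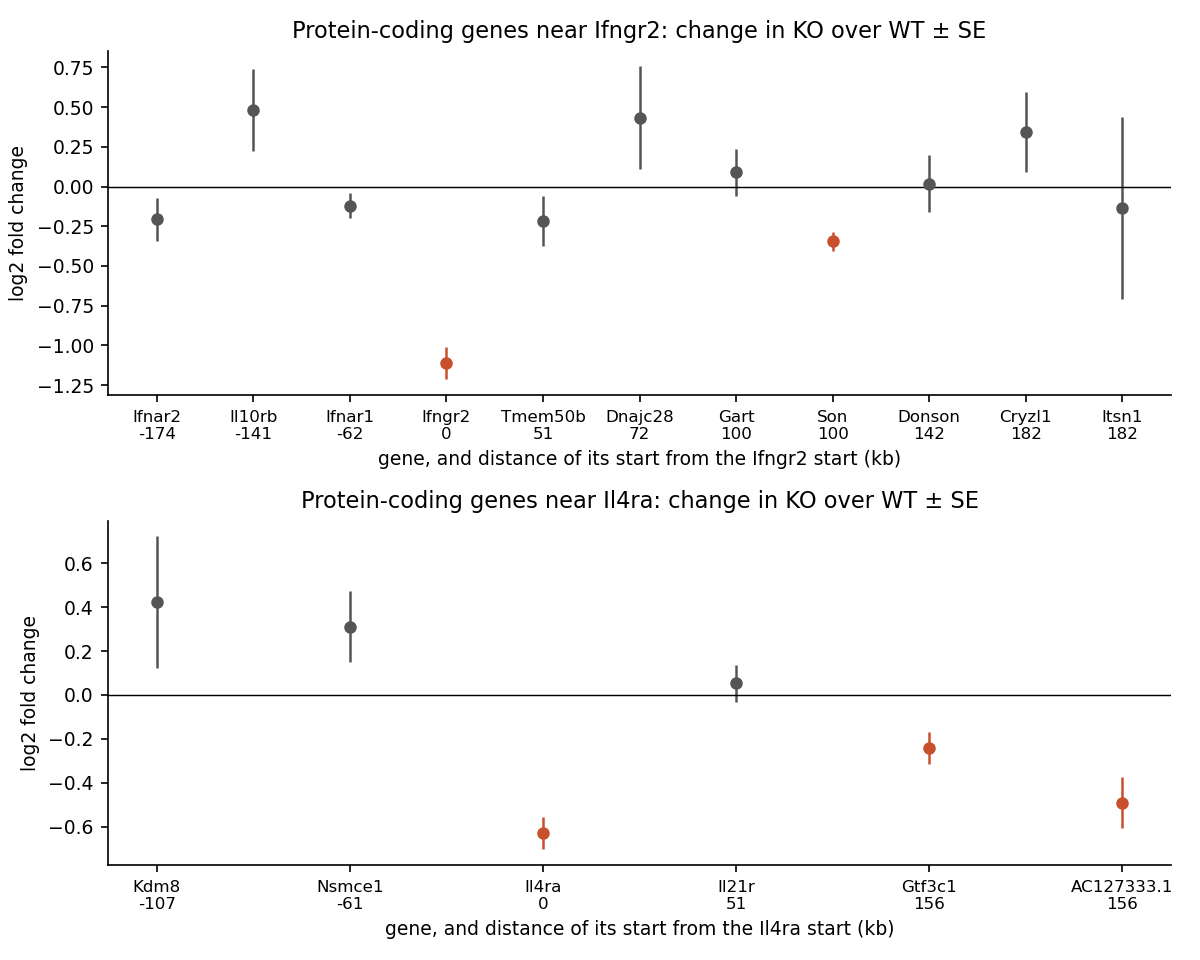
Log2 fold change, KO over WT, with its SE, of protein-coding genes of at least 1 CPM in either group around Ifngr2 (11 genes) and Il4ra (6 genes), in chromosome order, with called genes in orange. Ifngr2 at -1.11 is the lowest in its panel, and Il21r, next to Il4ra, lies at 0.05.

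Il7r (ENSMUSG00000003882.5, chromosome 15, 9505788 to 9530176, minus strand), which binds interleukin-7, was low in every library. It had 174 and 120 counts in WT and 259 and 275 in KO, or 4.85 and 3.29 against 6.99 and 7.56 CPM. Both KO libraries were higher than both WT libraries, with the WT libraries further apart than the KO libraries. Its log2 fold change of 0.84 (SE 0.33, 95% interval 0.11 to 1.56) was not called. The adjusted p from edgeR was 0.122. With each library left out it lay between 0.59 and 1.15. Innate lymphoid and natural killer markers, from cells that can carry Il7r, summed to 87.3 and 85.9 CPM in WT and 81.9 and 91.9 CPM in KO, most of it Id2, with Ncr1 at 0 counts in every library. Their part in the Il7r values, like that of the single-positive and double-negative markers above, was not tested.

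Transcription factors known to act on Il7r changed in both directions. Of 14 tested, 6 fell, 2 rose and 6 were not called, with a median log2 fold change of -0.18. Foxo1, an activator of Il7r, had 253 and 259 CPM in WT and 93.8 and 75.5 CPM in KO (-1.59, SE 0.10, adjusted p = 1.21e-06). Gfi1, a repressor of Il7r, fell as well, from 285 ± 16.7 to 189.9 ± 7.28 CPM (-0.59, SE 0.08, adjusted p = 0.000427). Foxp1, which opposes Foxo1 at Il7r, fell by 0.36 on the log2 scale, and Runx3, Klf2 and the glucocorticoid receptor gene Nr3c1 fell too (-0.87, -0.97 and -0.35). Runx3 and Klf2 are also in the list of single-positive markers. Those that rose were Tcf7 (0.39) and Ets1 (0.24). Ets1 did not pass when WT replicate 1 (0.106) or WT replicate 2 (0.0521) was left out. Several of these genes overlap other annotated genes, among them Foxo1, Foxp1, Gfi1, Runx3, Tcf7 and Ets1, so shared reads cannot be told apart where counting ignored strand.

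The gp130 family showed no called change. Il6st (ENSMUSG00000021756.12, chromosome 13, 112464070 to 112510086, plus strand), the shared signalling chain, had 272 and 289 CPM in WT and 250.5 and 236 CPM in KO. Both KO libraries were below both WT libraries. Groups without overlap, in one direction or the other, were found for 55.9% of all genes tested. Its log2 fold change of -0.20 (SE 0.07, 95% interval -0.37 to -0.04) was not called. The adjusted p from edgeR was 0.0886.

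Il27ra (ENSMUSG00000005465.9, chromosome 8, 84030294 to 84042589, minus strand), the chain specific to interleukin-27, had 39.1 and 34.7 CPM in WT and 42.6 and 39.0 CPM in KO. The groups overlapped, with KO replicate 2 just under WT replicate 1. Between groups the log2 fold change was 0.15 (SE 0.13, 95% interval -0.14 to 0.44, adjusted p = 0.554). It shares 2 bases with Palm3 on the other strand.

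Il6ra (ENSMUSG00000027947.11, chromosome 3, 89864059 to 89913196, minus strand), which binds interleukin-6, was the lowest of the chains. It had 57 and 215 counts in WT and 32 and 75 in KO, or 1.59 and 5.89 against 0.864 and 2.06 CPM. The groups overlapped, and WT replicate 2 stood above the other 3 libraries. Its log2 fold change was -1.34 (SE 0.65, 95% interval -2.75 to 0.06, adjusted p = 0.205). It was called without WT replicate 1 (-2.00, adjusted p = 0.00524) and without KO replicate 2 (-2.11, adjusted p = 0.0406), and was -0.11 without WT replicate 2. Myeloid cells are known to express Il6ra, and the 9 myeloid markers summed to 6.44 and 9.67 CPM in WT and 11.6 and 4.45 CPM in KO, with S100a8 at 0 counts in every library. Their part in the Il6ra values was not tested.

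**Figure D3:**
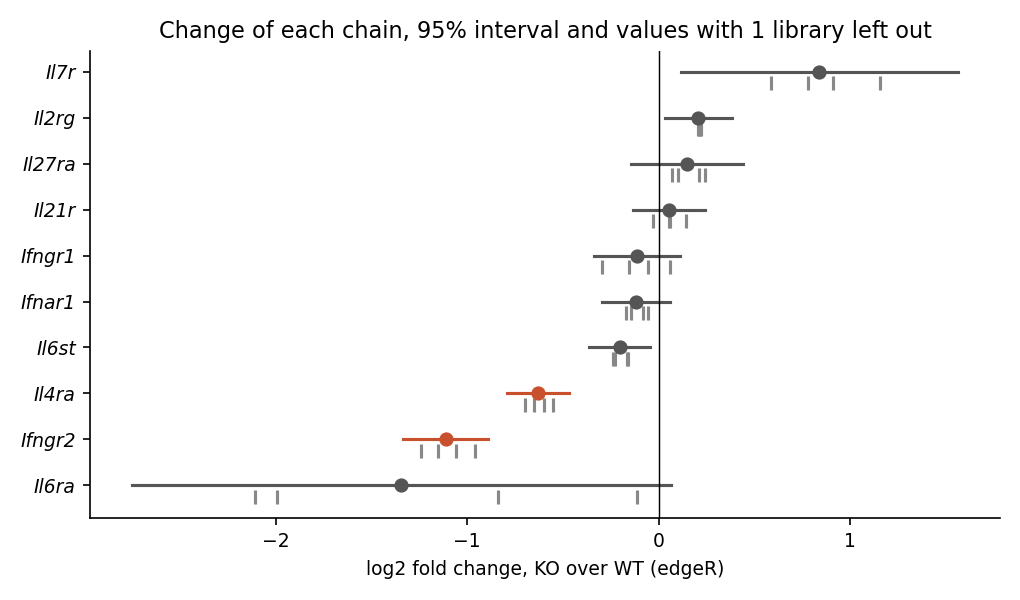
Log2 fold change, KO over WT, of each chain from the edgeR fit (points) with its 95% interval (lines), and the values with 1 library left out (grey ticks). Only Ifngr2 and Il4ra, in orange, were called, and the ticks of Il6ra run from -2.11 to -0.11.

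Because a receptor needs its chains together, the ratio of RPKM between 2 chains of a receptor was read within each library. For interferon gamma, Ifngr2 stood at 0.350 and 0.455 of Ifngr1 in WT and at 0.184 and 0.221 in KO. For interleukin-4, Il4ra stood at 1.82 and 1.88 of Il2rg in WT and at 0.979 and 1.10 in KO. These ratios are of RNA and depend on the deposited gene lengths. They do not give the ratio of chain proteins, which were not measured. The ratio of Il27ra to Il6st was 0.456 and 0.381 in WT and 0.541 and 0.525 in KO, and that of Il21r to Il2rg was 0.925 and 0.915 against 0.772 and 0.881.
Ratios to Il2rg were far smaller for Il7r, at 0.0233 and 0.0156 in WT and 0.0286 and 0.0317 in KO. The groups did not overlap in these 5 ratios and overlapped in the other 2 of 7, Ifnar2 to Ifnar1 and Il6ra to Il6st. In CPM, the groups did not overlap for 55.9% of all genes tested. The ratios of Il4ra, Il21r and Il7r share Il2rg and are not independent. With 2 libraries a group the exact two-sided permutation test cannot go below p = 0.333, the value reached in each of the 5 (0.467 after Benjamini-Hochberg adjustment over the 7), so no ratio passed a test.

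**Figure D4:**
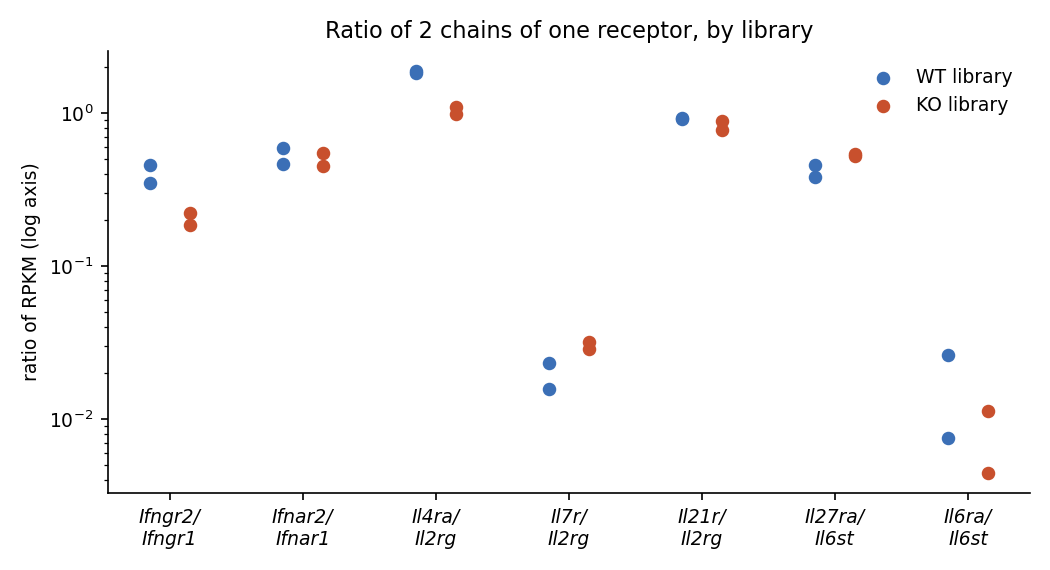
Ratio of RPKM (log axis) between 2 chains of a receptor in each WT and KO library. The Ifngr2 to Ifngr1 ratio is 0.350 and 0.455 in WT and 0.184 and 0.221 in KO, and the Il4ra to Il2rg ratio is lower in both KO libraries too.

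Other chains of the same families were mostly low. Of 33 written, 19 passed the filter on low counts, 1 of these fell, 0 rose and 18 were not called, with 6 at 0 counts in every library (among them Il23r and Osmr). Il15ra, the private chain of the interleukin-15 receptor, went down from 7.32 ± 0.337 to 3.18 ± 0.636 CPM (-1.20 in log2, SE 0.34, adjusted p = 0.0324). Leaving out WT replicate 2 (0.0919) or KO replicate 1 (0.14) ended the call. Without KO replicate 2, 3 of these chains fell, and 2 without WT replicate 1. Partners of the common gamma chain were not called: Il2ra had 6.11 and 8.82 CPM in WT and 9.75 and 10.9 CPM in KO (adjusted p = 0.298), and Il2rb had 6.50 and 6.93 against 8.13 and 7.58 CPM (adjusted p = 0.683). Crlf2, which pairs with Il7r to bind thymic stromal lymphopoietin, had 32.6 and 31.1 CPM in WT and 30.6 and 33.5 CPM in KO (adjusted p = 0.976). Il13ra1, which pairs with Il4ra for interleukin-13, had at most 14 counts in any library and was not tested. Il12rb1, a chain of the interleukin-12 and interleukin-23 receptors, was among the higher of these at 57.4 ± 1.44 CPM in WT and 57.0 ± 8.28 in KO. In the interleukin-1 and interleukin-17 families, 1 of 10 tested chains rose, Il17rb (0.46, SE 0.14, adjusted p = 0.044), which overlaps Actr8. Leaving out WT replicate 1 (0.127), WT replicate 2 (0.0798) or KO replicate 2 (0.201) ended it.

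Kinases and STAT factors below these receptors were measured in all libraries. Among 12 genes 3 rose and 1 fell, and 8 did not pass, with a median of -0.00. Stat6, the factor that interleukin-4 acts through, rose from 167 ± 0.971 to 225 ± 7.38 CPM (0.43 in log2, SE 0.08, adjusted p = 0.0024), in the libraries where Il4ra fell. Jak3, the kinase held by the common gamma chain, rose from 47.7 ± 0.486 to 63.7 ± 1.39 CPM (0.42, SE 0.10, adjusted p = 0.0178). Leaving out WT replicate 1 ended that call (0.063). Stat2, which acts with type I interferon, rose too (0.41), and Stat5a fell from 267 ± 19.5 to 192 ± 8.20 CPM (-0.48, SE 0.08, adjusted p = 0.0018). Its close copy Stat5b was the more abundant, at 618 ± 26.6 CPM in WT and 659 ± 7.55 in KO, and was not called (0.09, adjusted p = 0.408). Jak2, held by Ifngr2, had 218 and 197 CPM in WT and 180.1 and 173 CPM in KO (-0.23, SE 0.08, adjusted p = 0.0802). Stat5a overlaps Stat3, Stat6 overlaps Nab2, and Jak3 overlaps Insl3.

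Of 15 inhibitors of the pathway, 1 fell, 1 rose and 13 were not called. Socs1, which blocks interferon gamma and interleukin-4 receptors, fell from 304 ± 39.6 to 211 ± 11.9 CPM (-0.52 in log2, SE 0.09, adjusted p = 0.00266). Its call was lost in limma on log2 RPKM with a mean RPKM of at least 1 (adjusted p = 0.0503). Ptpn6 (SHP-1), a phosphatase, rose from 138 ± 7.28 to 185 ± 1.53 CPM (0.42, SE 0.08, adjusted p = 0.00411). Socs2 had 1.98 and 1.34 CPM in WT and 0.270 and 0.247 CPM in KO (-2.67, SE 0.86, adjusted p = 0.0569) and was not called.

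Among 30 tested textbook targets of STAT factors, 3 rose and 3 fell while 24 did not pass, with a median of 0.04. Irf1, an interferon-induced transcription factor gene, had 449 and 567 CPM in WT and 281 and 313 CPM in KO (-0.77 in log2, SE 0.10, adjusted p = 0.000363). Socs1 and Bcl2l1 (-0.32, adjusted p = 0.016) were the others that fell, with the Bcl2l1 call lost without WT replicate 2 (0.158). Other interferon gamma targets were not called: Gbp4 had 227 and 236 CPM in WT and 239 and 223 CPM in KO (adjusted p = 0.984), and Igtp had 50.5 and 55.8 against 56.9 and 59.7 CPM (adjusted p = 0.491). The immunoproteasome gene Psmb8, also induced by interferon gamma, rose from 92.9 ± 8.55 to 136 ± 1.19 CPM (0.55, SE 0.09, adjusted p = 0.00162). Bcl6 (0.62, SE 0.09, adjusted p = 0.000564) and Mcl1 (0.22, SE 0.06, adjusted p = 0.0417) rose as well. The call of Mcl1 ended with the replicate block (0.0504) and on leaving out WT replicate 1 (0.24), WT replicate 2 (0.113) or KO replicate 2 (0.0893). Irf1, Psmb8 and Bcl6 each overlap another annotated gene.

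**Figure D5:**
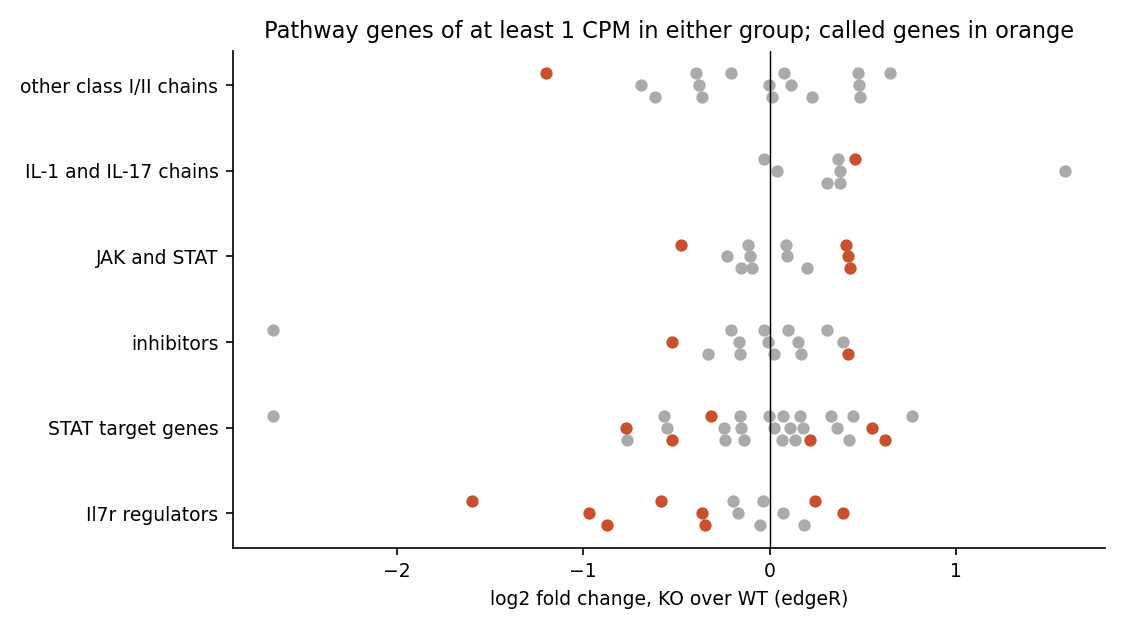
Log2 fold change, KO over WT, of pathway genes of at least 1 CPM in either group, 1 point a gene and 1 row a list, with called genes in orange. Called genes lie on both sides of 0 in the JAK and STAT, inhibitor, target and Il7r regulator lists, and the lowest point in the inhibitor and target lists is Socs2 at -2.67.

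The cytokines themselves were mostly not tested for lack of counts. Of 24 ligands of receptors that hold one of the 10 chains, 10 had 0 counts in every library, among them Il6, Il7, Il27 and Ifnb1. Of these 24, 5 were tested, 0 were called, and the highest level was that of Osm, at 4.48 CPM in KO replicate 1. Ifng had 4 and 9 counts in WT and 0 in both KO libraries, and Il4 had 7 and 11 counts in WT and 14 and 17 in KO.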

How the data were processed

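Gene counts of 4 libraries (2 WT, 2 KO) and 1 table of RPKM values were used. The deposited counts are raw counts per gene made by the authors. Per the submitters' processing notes, the tools include HTSeq 0.6.1, STAR 2.6.0a and DESeq2 1.24.0, with GRCm38 (mm10). Sources used here do not give the strand setting or annotation release. Each RPKM value the authors deposited equals the count divided by the deposited gene length and library total, within a relative tolerance of 1e-06, for all 214860 values.

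The main test was the quasi-likelihood test of edgeR 4.0.16 in R 4.3.3 (two-sided, TMM, filterByExpr, robust, genotype as the only term), with Benjamini-Hochberg adjustment over 16588 genes. SEs come from the log2 fold change and its F statistic. CPM used library totals. Alternatives were other factors and filters, DESeq2 1.42.0, limma 3.58.1 (voom, and log2 RPKM plus 0.5 or 0.1), a replicate block and leaving out each library. limma on RPKM used a variance trend, a choice not set in advance, so it was also run without one, after seeing that it called 0 genes. The edgeR fit was tested on simulated data: large changes were mostly recovered and small ones often missed. A first pass mark, that nearly all signs be right at every size, was missed for the smallest changes and was then lowered with the fit unchanged, so small changes are less sure in sign. Coordinates and overlaps are from GENCODE M21 (GRCm38), with all 10 identifiers matched. Promoters are RefSeq's (GRCm38.p6), with 9 chains matched, and the motifs were chosen after the sequences were seen. No pair is given for Il4ra with Il13ra1, which had 0 counts in 1 library. Figures used matplotlib 3.10.9.

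The 10 chains and all lists were chosen with earlier results of these data known. Named genes were all 10 chains, called genes of each list (up to 5), partner chains, nearest neighbours and Srsf1. Other genes given by value (Il10rb, Ifnar2 and chains or targets not called, further called regulators, marker genes and genes near Ifngr2 or Il4ra) include some named after their values were seen. Some genes of the lists are not reported here.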

Additional observations from a re-analysis of the deposited data

How the results depend on the processing

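Over 159 pairs of a chain and an alternative, 148 kept the direction and the side of the threshold of the reported value, 6 lost a call, 3 gained one and 2 changed sign. Both changes of sign came without KO replicate 2, where the log2 fold change of Ifngr1 was 0.061 and that of Il21r -0.032. With 1 library left out these ran from -0.29 to 0.061 and from -0.032 to 0.14. The 6 lost calls were Ifngr2 and Il4ra in limma on log2 RPKM over all genes with a count: adjusted p = 0.0879 for both with 0.5 added, 0.0746 for both with 0.1 added, and 0.166 and 0.169 with 0.5 added and no variance trend, the last chosen after seeing the data. Each of these fits called 0 genes higher, 0 lower and thus 0 chains lower, with smallest adjusted p values of 0.0678, 0.0523 and 0.163. At an unadjusted p under 0.05 they held 2055, 2099 and 1874 genes higher and 2234, 2271 and 2295 lower. With a mean RPKM of at least 1, limma called 483 genes higher and 621 lower, and both chains. Il6ra was not tested there. Some list genes called in the main fit were not called there, among them Socs1 (adjusted p = 0.0503), Foxp1 (0.0554), Stat2 (0.0645) and Runx3 (0.0645). DESeq2 called 1165 higher and 1414 lower. With the replicate block, edgeR called 1304 genes higher and 1505 lower, and gave -1.11 for Ifngr2 and -0.63 for Il4ra, both called. Equal numbers are not shown to pair libraries (their deviations correlated at -0.0392, over 2 pairs). Leaving out 1 library gave 2 or 3 chains called lower, 949 to 1213 genes higher and 1031 to 1484 lower. Il7r and Il6ra had the fewest counts of the chains, 120 to 275 and 32 to 215 in a library, and the largest SEs. How much of this is depth was not tested.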
